A study of Oryza sativa with 18 samples.

Results

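Jasmonate (JA) lowered the transcripts of many genes in rice crown root tips, and for most of them the fall was smaller in oscoi2 plants, which are edited in the receptor gene OsCOI2. The genes described here are those whose fall was kept in oscoi2 plants. They were chosen from the measured values themselves: a mean in WT plants under mock of at least 2 CPM (a gene's count divided by the library total and multiplied by 1000000), a JA response L of -1.5 or below both in WT plants and in oscoi1ab plants, and an L in oscoi2 plants of at most 0.8 times that in WT plants. L is log2 of the mean CPM after JA over the mean CPM under mock, with 0.5 CPM added to each. Of 64687 genes listed, 21619 reached the minimum level, 1330 of these met the limits in WT and oscoi1ab plants, and 186 met the limit in oscoi2 plants as well. These 186 are called the retained genes below, and the 1144 that failed only the limit in oscoi2 plants are called the other JA-repressed genes. All 186 retained genes also passed the filter of the tests, a sum of 180 counts over the libraries.

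The plants were rice (Oryza sativa) of the cultivar Kitaake, 6 days old, kept for 6 h in liquid medium with 5 µM JA or with DMSO (mock). Of the 3 lines, WT plants were unedited, oscoi1ab plants carried edits in OsCOI1a and OsCOI1b, and oscoi2 plants carried edits in OsCOI2. Both edited genotypes were homozygous for small deletions, oscoi1a-1/b-1 and oscoi2-2 in full, and each was represented by a single line. Each of the 18 libraries came from the tips, about 1 cm long, of crown roots pooled from 20 to 24 plants, with 3 biological replicates per line and treatment that the study had selected from 5 independent samples.

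JA is a hormone that restrains root growth and promotes defense in plants. Its active form, jasmonoyl-isoleucine, is bound by COI receptors, which are F-box proteins that mark JAZ repressors for degradation and so free transcription factors. A young root grows by division near the tip and by expansion of cells behind it. Expansion needs wall-loosening proteins, enzymes that remodel xyloglucan and pectin, and water uptake into the vacuole, and root hairs grow out of epidermal cells once expansion ends.

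Library totals lay between 99657931 and 113672521 counts. OsCOI1a (LOC_Os01g63420) averaged 102 CPM in WT plants and 20.7 CPM in oscoi1ab plants under mock, OsCOI1b (LOC_Os05g37690) 150 and 127 CPM, and OsCOI2 (LOC_Os03g15880) 48.6 CPM in WT plants and 26.1 CPM in oscoi2 plants, and an edit in the coding sequence need not lower the transcript. The 4 cell division genes the study lists (OsCDKB1, OsCDKB2, OsCYCB1-1 and OsCYCB2-2) were detected, with a summed level of 158 to 169 CPM in WT mock libraries and 179 to 194 CPM in oscoi2 mock libraries. After JA the same sum was 67.2 to 94.3 CPM in WT plants and 120 to 156 CPM in oscoi2 plants. The sum of 11 light-harvesting genes, markers of green tissue, was 338 to 1162 CPM in WT mock libraries and 29.2 to 84.8 CPM after JA, against 117 to 410 CPM and 87.1 to 261 CPM in oscoi2 plants. Of the 2 root meristem regulators that were read, OsPLT1 and OsPLT4, the mean of OsPLT1 was 39.8 CPM in WT mock and 50.7 CPM in WT JA libraries, while that of OsPLT4 was 5.75 and 1.04 CPM. In oscoi2 plants the means were 28.1 and 63.7 CPM for OsPLT1 and 4.91 and 3.44 CPM for OsPLT4. Further planned markers, among them the meristem gene QHB and genes of root hair, exodermis, endodermis and stele, were left out. The part of cell composition in the results below was not tested, and in bulk root tips fewer cells of a type and less RNA per cell cannot be told apart.

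Seen over whole libraries, the retained genes differed from the other JA-repressed genes on both sides of the treatment. The median retained gene stood at 88.4%, 114% and 94% of its own WT mock mean in the 3 WT mock libraries, and at 17.8%, 28.6% and 16.1% in the 3 WT JA libraries. In oscoi1ab plants it stood at 100%, 119% and 108% under mock and at 14.8%, 17.7% and 14.2% after JA. In oscoi2 plants the values were 141%, 130% and 165% under mock and 33%, 28.1% and 41.6% after JA. The oscoi2 libraries thus began above every WT mock library, and the drop led to levels that overlapped the highest WT JA library. The median of the other JA-repressed genes was 70.7% to 84.6% in oscoi2 mock libraries and 40.5% to 48.5% in oscoi2 JA libraries, a smaller distance from a lower start. These medians rest on the values that chose the genes and are a description.

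**Figure D1:**
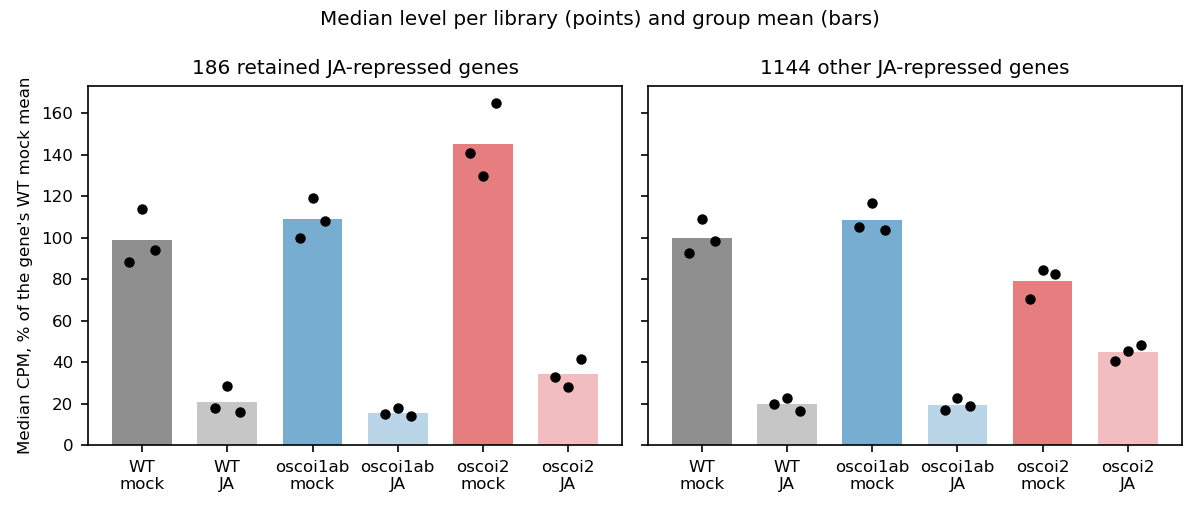
Median level per library as a percentage of each gene's mean CPM in WT mock libraries, for the 186 retained genes (left) and the 1144 other JA-repressed genes (right); points are libraries and bars are means of 3 libraries. The oscoi2 mock libraries lie at 130% to 165% on the left and at 70.7% to 84.6% on the right.

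The size of the response followed the rule that chose the genes. The median L of the retained genes was -1.79 in WT plants, -2.24 in oscoi1ab plants and -1.74 in oscoi2 plants. For the other JA-repressed genes the medians were -1.99, -2.16 and -0.80, and for all 21619 genes of at least 2 CPM they were -0.37, -0.35 and -0.14. After JA the median retained gene kept 20.7% of its mock level in WT plants, 13.9% in oscoi1ab plants and 25.1% in oscoi2 plants. L was lower in oscoi2 than in WT plants for 65 of the 186 genes, and lower in oscoi1ab than in WT plants for 162 of them (87.1%), which for the other JA-repressed genes was 781 of 1144 (68.3%). The rule used both responses, and its limit for oscoi2 plants favours genes with a shallow measured fall in WT plants, so these shares are partly set by the choice.

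**Figure D2:**
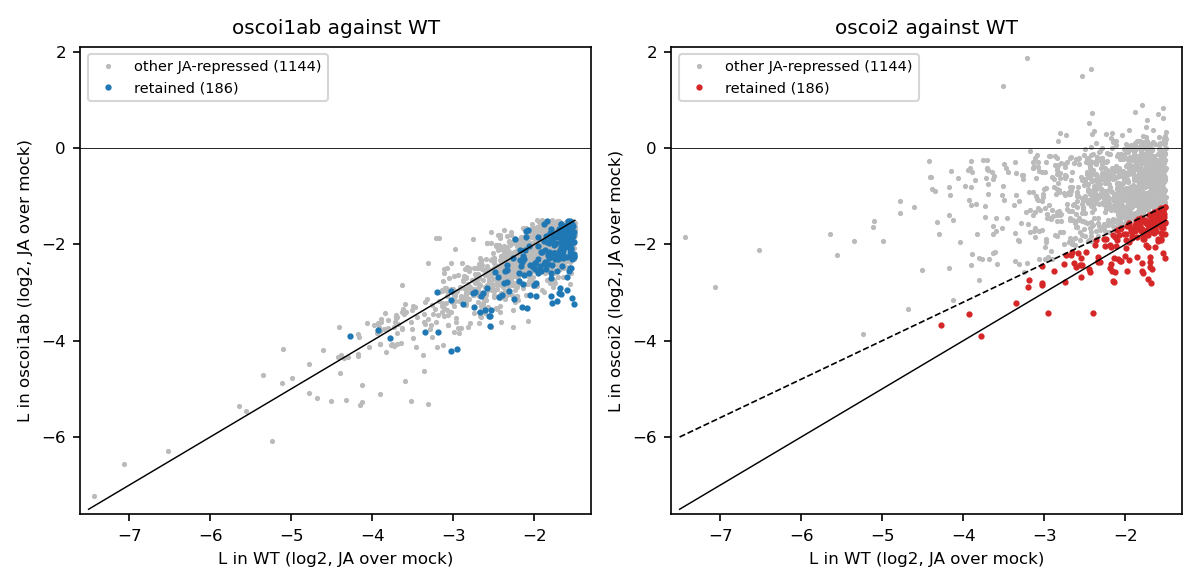
JA response L (log2 of mean CPM after JA over mock) of each of the 1330 JA-repressed genes in oscoi1ab (left) and oscoi2 plants (right) against that in WT plants; the solid line marks equal responses and the dashed line, on the right only, 0.8 times the WT response. The coloured points are the 186 retained genes, chosen by rule below the dashed line, and on the left most of them lie below the line of equal responses.

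Called by edgeR (quasi-likelihood F test with a false discovery rate, FDR, below 0.01 over 30907 genes and at least a log2FC of 1 in size), 137 of the retained genes were lower after JA in WT plants, 168 in oscoi1ab plants and 121 in oscoi2 plants. Over all genes tested, 6.56%, 8.15% and 1.47% were called lower in the same contrasts, which the rule used, so nothing is read from the counts. A fall in oscoi2 plants was not particular to the retained genes. Among the other JA-repressed genes 137 of 1144 (12%) were called lower in oscoi2 plants, and 410 (35.8%) had an L of -1 or below there. The median log2FC of the retained genes in oscoi2 plants was -1.85, where that of all genes tested was -0.01. The edgeR values use TMM scaling, which moves the JA response of all genes up by 0.35 in WT plants, 0.36 in oscoi1ab plants and 0.15 in oscoi2 plants against scaling by library total. With CPM on the TMM scale 765 genes met the limits in WT and oscoi1ab plants, and the whole rule gave 106 genes, 82 of them among the 186.

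The count of retained genes called lower after JA in oscoi2 plants depended on single libraries. It was 75 without oscoi2 mock replicate 3, 75 without oscoi2 JA replicate 1 and 63 without oscoi2 JA replicate 2. No retained gene was called for a difference between the JA responses of oscoi2 and WT plants (edgeR interaction contrast), where 2.94% of all genes were. This contrast was also used by the rule, and a response ratio near 1 is what the rule asked for. At an unadjusted p under 0.05 there was 1 such gene, LOC_Os07g03690, singled out after its values were seen, where 23.2% of all genes passed, and DESeq2 called 0.

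Among the retained genes, 24 carry a name in the tables of the study and 162 are known here only by their identifiers. None of the identifiers matched the reference gene table. The names come from lists that the study drew up on these same samples, so a share of named genes is not independent evidence. The cell wall list of 32 genes held 22 JA-repressed genes, of which 9 were retained (40.9%). The list of 351 transcription factor genes held 61, of which 11 were retained (18%). The photosynthesis list of 41 genes held 35, and 0 were retained, as their median L was -3.09 in WT plants and -0.45 in oscoi2 plants. Over all JA-repressed genes the share was 14%. The lists for JAZ genes, COI genes, cell cycle, and the pathways of isoprenoid and diterpenoid precursors and of shikimate held no JA-repressed gene, and the defense list held 3 and the JA metabolism list 1, none of them retained.

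The 9 retained cell wall genes comprised 2 expansins, 3 xyloglucan endotransglucosylase/hydrolases (XTH), 2 pectin methylesterases, a mutase and a fucosyltransferase. Their L in oscoi2 plants lay between -2.84 and -1.32, and for all 9 the oscoi2 JA libraries lay below the oscoi2 mock libraries. Over all genes tested 25.8% did so, and the rule used this contrast. Mean mock levels were higher in oscoi2 than in WT plants for 8 of the 9, with a median ratio of 1.73, and for 6 the libraries did not overlap, where 12.4% of all genes tested lay wholly higher in oscoi2 mock libraries. The mock level enters the rule. Higher mock means were not particular to these genes. Among JA-repressed genes of the list that were not retained, the mean was lower in oscoi2 plants only in OsEXP13, OsEXPB7 and OsXTH16. In OsEXP4, for example, it was 36.1 CPM in WT and 54.6 CPM in oscoi2 plants.

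XTH enzymes cut and rejoin xyloglucan, the polymer that tethers cellulose fibres. OsXTH2 (LOC_Os11g33270) had 85.0, 126 and 61.6 CPM in WT mock libraries and 9.99, 19.3 and 2.90 CPM after JA. In oscoi2 plants it had 234, 175 and 243 CPM in mock libraries and 30.5, 24.1 and 37.4 CPM after JA. Every oscoi2 library lay above every WT library of the same treatment, and JA left 11.8% of the mock level in WT plants, 4.98% in oscoi1ab plants and 14.1% in oscoi2 plants. The difference between oscoi2 and WT plants under mock, a log2FC of 1.31 (SE 0.47), had an edgeR FDR of 0.103.

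OsXTH4 (LOC_Os08g14200) followed the same order at 26.2 ± 5.98 CPM (SD, n = 3 here and below) in WT mock, 6.54 ± 5.52 CPM in WT JA, 51.2 ± 6.64 CPM in oscoi2 mock and 15.2 ± 4.21 CPM in oscoi2 JA libraries. OsXTH7 (LOC_Os04g51510) sat at the edge of the rule, with an L of -1.95 in WT plants and -1.56 in oscoi2 plants. Its closest list members by locus number were not retained: OsXTH16 had an L of -2.46 in WT plants and -0.60 in oscoi2 plants, and OsXTH9 of -1.99 and -1.46. XTH genes with neighbouring numbers therefore fell on both sides of the limit, and XTH genes of one region can share reads where their sequences are alike.

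Expansins loosen the wall without cutting its polymers. OsEXP15 (LOC_Os03g06020) had 6.62, 7.98 and 4.42 CPM in WT mock libraries, and after JA 0.502, 0.505 and 0 CPM. In oscoi2 plants it had 8.37, 7.81 and 10.7 CPM in mock libraries and 0.320, 0.975 and 1.15 CPM after JA. Its levels under mock overlapped between the lines. L was -3.03 in WT plants, -3.16 in oscoi1ab and -2.84 in oscoi2, but the 0.5 CPM added in L exceeds the WT JA mean. The means themselves fell from 6.34 to 0.336 CPM in WT plants and from 8.94 to 0.815 CPM in oscoi2 plants. The share left after JA was thus larger in oscoi2 plants than L shows. OsEXP28 (LOC_Os10g30340) had an L of -2.19, -2.76 and -2.49 in the same order, at mock means of only 2.92 ± 1.26 CPM in WT plants and 4.57 ± 1.78 CPM in oscoi2 plants.

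The locus numbers around OsEXP15 hold other expansins of the cell wall list. OsEXP12 (LOC_Os03g06000) had an L of -1.65 in WT plants and -1.27 in oscoi2 plants, and OsEXP25 (LOC_Os03g06010) of -2.15 and -1.02, so neither was retained. OsEXP20 (LOC_Os03g06060) averaged 0.975 CPM in WT mock libraries, under the minimum. Among the retained genes are also LOC_Os03g06050, with an L of -1.79 in WT and -2.39 in oscoi2 plants at 2.01 CPM, and Os03g0155632, the identifier just before that of OsEXP15. The counts of Os03g0155632 followed those of OsEXP15 over the 18 libraries with r = 0.985, and how far both draw on the same reads was not tested.

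OsUMA3 (LOC_Os07g41360), annotated as a UDP-arabinopyranose mutase, an enzyme that supplies arabinofuranose for wall polymers, had 108, 125 and 112 CPM in WT mock libraries against 205, 161 and 175 CPM in oscoi2 mock libraries. After JA the values were 32.8, 50.6 and 25.3 CPM and 71.9, 56 and 86.5 CPM. The lines did not overlap in either treatment, and oscoi1ab plants had 107, 112 and 112 CPM under mock, within the range of WT plants or just below it. The difference under mock was a log2FC of 0.71 (SE 0.20, edgeR FDR 0.0498), which passes an FDR of 0.05 but not the call.

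Pectin methylesterases remove methyl groups from pectin and so change its stiffness. OsPME5 (LOC_Os01g53990) averaged 9.95 ± 1.55 CPM in WT mock and 17.2 ± 4.43 CPM in oscoi2 mock libraries, and 3 ± 1.07 and 6.6 ± 1.58 CPM after JA. OsPME19 (LOC_Os06g09340) averaged 8.48 ± 3.09 CPM in WT mock against 14.8 ± 3.45 CPM in oscoi2 mock libraries, with JA levels of 1.64 ± 0.622 and 4.28 ± 2.33 CPM. XG_FT3 (LOC_Os04g37650), a xyloglucan fucosyltransferase by its name in the list, varied between replicates: WT mock libraries had 0.449, 6.50 and 4.80 CPM and oscoi2 mock libraries 0.756, 5.16 and 3.92 CPM. After JA all 6 libraries of both lines lay between 0.117 and 0.375 CPM, so that in replicate 1 the distance from mock was small in both lines.

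The 11 retained transcription factor genes included 2 bHLH genes annotated as regulators of root hair development. OsRHL1 (LOC_Os06g08500) had 4.77, 5.67 and 5.56 CPM in WT mock libraries and 0.474, 1.5 and 0 CPM after JA. In oscoi2 plants it had 10.5, 6.22 and 9.58 CPM in mock libraries and 0.859, 1.32 and 1.68 CPM after JA. The mock libraries of oscoi2 plants lay above those of WT plants, with a log2FC of 0.78 (SE 0.73) at an edgeR FDR of 0.594. OsRSL6 (LOC_Os07g39940), of the ROOT HAIR DEFECTIVE SIX-LIKE class, averaged 6.15 ± 1.24 CPM in WT mock and 8.23 ± 1.54 CPM in oscoi2 mock libraries, and 1.42 ± 0.81 and 2.24 ± 0.446 CPM after JA, and its lines overlapped in both treatments. Its L was -1.79 in WT plants, -1.90 in oscoi1ab and -1.67 in oscoi2.

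OsRAP2.8 (LOC_Os11g05740), a B3 domain gene, had the lowest L among the named genes in WT and oscoi2 plants. It had 9.06, 11.4 and 17 CPM in WT mock libraries and 0.338, 0.175 and 0 CPM after JA. In oscoi2 plants 13, 10 and 12.4 CPM became 0.585, 0.202 and 0.629 CPM. JA thus left 1.37% of the mock level in WT plants and 3.99% in oscoi2 plants. The next identifier, Os11g0156050, is also a retained gene and followed it with r = 0.882 over the 18 libraries.

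OsbZIP06 (LOC_Os01g55150), a bZIP gene, averaged 24.9 ± 6.23 CPM in WT mock and 45 ± 12.7 CPM in oscoi2 mock libraries, and JA left 32.7% and 33.9% of these. The C2H2 zinc finger genes ZOS4-14 (LOC_Os04g59380) and ZOS5-02 (LOC_Os05g02390) kept 31.2% and 19.5% of their mock level in WT plants and 38.8% and 25.5% in oscoi2 plants. The homeobox-leucine zipper gene OsHOX15 (LOC_Os10g01470) differed little between lines under mock, at 10.2 ± 2.79 CPM in WT and 11.5 ± 2.76 CPM in oscoi2 plants. It kept 28.1% and 31.6% of these levels after JA.

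The remaining transcription factor genes were near the minimum level. OsWRKY19 (LOC_Os05g49620) had 0.966, 5.74 and 2.68 CPM in WT mock and 1.24, 4.82 and 9.42 CPM in oscoi2 mock libraries, and all 6 JA libraries of both lines lay between 0.1 and 0.909 CPM. OsWRKY113 (LOC_Os06g06360) had 2.15, 4.75 and 2.79 CPM against 0.747, 5.30 and 7.47 CPM under mock, and in oscoi2 plants the JA libraries, at 0.247, 0.975 and 1.91 CPM, overlapped the mock libraries. ONAC022 (LOC_Os03g04070), of the NAC family, overlapped likewise, at 1.11, 5.29 and 7.64 CPM in mock libraries and 1.23, 1.38 and 1.69 CPM after JA in oscoi2 plants. OsWRKY106 (LOC_Os08g09810) kept 18.5% of 2.13 ± 0.623 CPM in WT plants and 16.4% of 2.16 ± 0.435 CPM in oscoi2 plants. WRKY factors are best known from defense and senescence. Replicate 1 had the lowest mock level of OsWRKY19, OsWRKY113 and ONAC022 in WT and oscoi2 plants.

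For the transcription factor genes the mock mean was higher in oscoi2 than in WT plants in 10 of 11, with a median ratio of 1.40, and 2 of the 11 did not overlap, against 12.4% of all genes tested. The mean was higher in 172 of all 186 retained genes (92.5%) as well. The mock level enters the rule, so these counts are a description. The lowest edgeR FDR among the 11 was 0.124 under mock, that of OsbZIP06, and 0.133 after JA, that of ZOS5-02, so none passed.

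**Figure D3:**
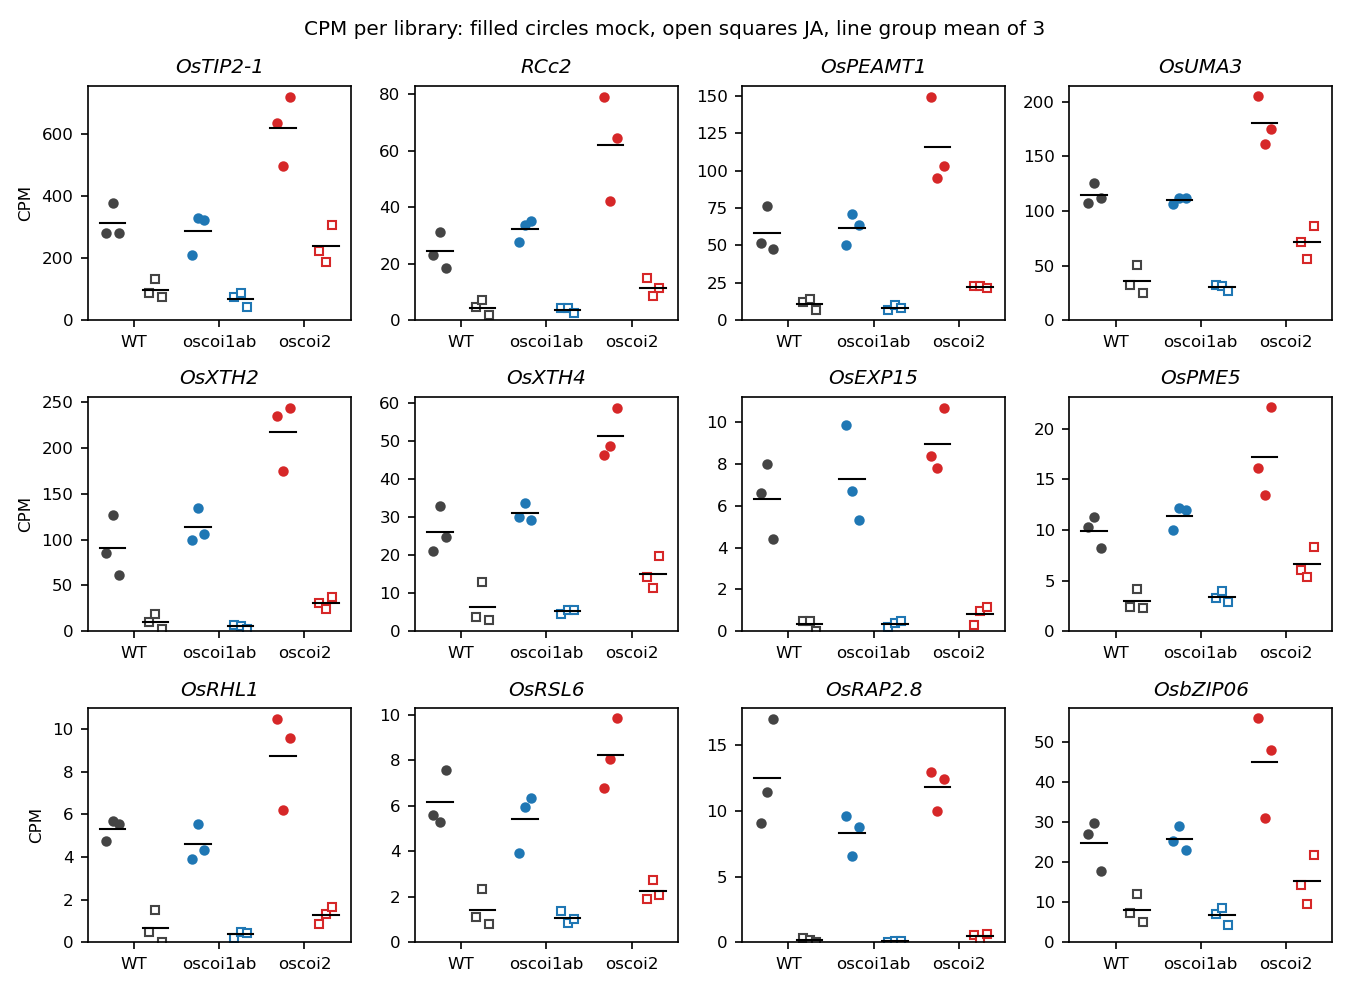
CPM of 12 named retained genes in each of the 18 libraries; filled circles are mock and open squares JA libraries, and lines are means of 3 libraries. In OsTIP2-1, RCc2, OsUMA3 and OsXTH2 the oscoi2 mock libraries lie above all WT mock libraries, while in OsEXP15 and OsRAP2.8 they overlap.

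A further 4 retained genes carry names in the study's list of genes higher in oscoi2 than in WT plants under mock. They were therefore picked for that difference, which is described and not used as support. OsTIP2-1 (LOC_Os02g44080) encodes a tonoplast aquaporin, a water channel of the vacuole membrane. It had 283, 380 and 282 CPM in WT mock libraries and 636, 499 and 721 CPM in oscoi2 mock libraries, and 210, 329 and 322 CPM in oscoi1ab plants. After JA the values were 87, 132 and 76.7 CPM in WT plants and 222, 188 and 308 CPM in oscoi2 plants. The oscoi2 libraries lay above those of WT plants in both treatments, and the JA level in oscoi2 plants, 239 ± 61.8 CPM, overlapped the WT mock level of 315 ± 56 CPM.

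RCc2 (LOC_Os10g40430), a root-specific protein of the lipid transfer protein family, had 23.3, 31.3 and 18.7 CPM in WT mock and 78.9, 42.2 and 64.3 CPM in oscoi2 mock libraries. JA left 18.5% of the mock level in WT plants and 18.7% in oscoi2 plants. OsPEAMT1 (LOC_Os01g50030), a phosphoethanolamine N-methyltransferase that makes the choline headgroup of membrane lipids, averaged 58.6 ± 15.7 CPM in WT mock and 116 ± 29.3 CPM in oscoi2 mock libraries. Here too the remaining shares after JA were close, at 19.1% and 19.5%, and the oscoi2 JA level was 22.6 ± 0.803 CPM against 11.2 ± 3.56 CPM in WT plants. OsAGPEP3 (Os05g0541750), annotated as a hypothetical gene, averaged 55.1 ± 10.6 CPM in WT mock and 121 ± 29.4 CPM in oscoi2 mock libraries and kept 31.3% and 32.8%.

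Of the 10 retained genes with the highest CPM in WT mock libraries, 7 carry no name in the sources used here. Os06g0152550 and LOC_Os06g05930 had 157 to 175 CPM each in WT mock libraries with count ratios of 1.00 to 1.05 in the 18 libraries, so how far they are counted from the same reads cannot be told, and they are given as uncertain. LOC_Os03g12290 had 81.9, 106 and 125 CPM in WT mock libraries, 169, 254 and 219 CPM in oscoi1ab mock libraries and 158, 169 and 254 CPM in oscoi2 mock libraries. The mock libraries of both edited lines thus lay above those of WT plants, but edgeR called no retained gene in either contrast. For oscoi1ab against WT plants under mock the lowest edgeR FDR of any retained gene was 0.254. The JA libraries of LOC_Os03g12290 held 12.4 to 26.6 CPM in WT plants, 12.8 to 18 CPM in oscoi1ab and 28.2 to 33.5 CPM in oscoi2. LOC_Os02g33820 overlapped between WT and oscoi2 plants in both treatments, with mock levels of 66.3 to 112 CPM and 55.5 to 118 CPM and JA levels of 11.1 to 19.2 CPM and 15.9 to 20.2 CPM. LOC_Os01g15970, LOC_Os02g07870 and LOC_Os05g48270 averaged between 78.6 and 89.9 CPM in WT mock libraries and had an L between -1.35 and -1.54 in oscoi2 plants.

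The lowest L in oscoi2 plants, -3.90, belonged to LOC_Os01g39860. It had 15.3, 10.5 and 20.7 CPM in oscoi2 mock libraries and 0.347, 0.110 and 1.27 CPM after JA, and its JA libraries in WT plants were at 0, 0.110 and 0 CPM. After OsRAP2.8 the next genes were LOC_Os02g53130 at -3.44, LOC_Os04g53710 at -3.42, LOC_Os04g46820 at -3.42, LOC_Os01g09540 at -3.21 and LOC_Os07g03690 at -2.89, followed by OsEXP15, OsXTH2 and LOC_Os09g24840 at -2.80. In LOC_Os04g46820 and LOC_Os09g24840 the L in WT plants was less negative, at -2.40 and -1.68, and their oscoi2 mock libraries, at 6.22 to 8.62 CPM and 5.74 to 10.6 CPM, lay above those of WT plants at 1.98 to 3.53 CPM and 0.853 to 4.2 CPM. In oscoi1ab plants 1 retained gene, LOC_Os02g45280, was at 0 counts in all 3 JA libraries.

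Under mock, the retained genes stood higher in oscoi2 plants than in WT plants. The mean was higher in 172 of 186 genes (92.5%), where it was so in 31.3% of the other JA-repressed genes and 45.1% of all genes of at least 2 CPM. The median ratio of oscoi2 to WT mock levels was 1.43, against 0.806 and 0.972 in those sets. In 79 retained genes all oscoi2 mock libraries lay above all WT mock libraries and in 0 below, where 12.4% of all genes tested lay above and 14.3% below. The mock level of oscoi2 plants enters the rule, and a high one lowers L, so these counts are not independent of the choice of genes.

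None of the retained genes was called for this difference by the quasi-likelihood test of edgeR, where 0.22% of all genes were called higher. At an unadjusted p under 0.05 there were 67, against 22.7% of all genes, and 18 passed an FDR of 0.05, all 18 of them higher in oscoi2 plants, where 3.56% of all genes passed it as higher. DESeq2 called 6 of the 158 retained genes to which it gave an adjusted p as higher (3.8%), where it called 0.607% of all such genes. The study, which also used edgeR, listed OsTIP2-1, RCc2, OsPEAMT1 and OsAGPEP3 as higher. The likelihood ratio test of edgeR called these 4 here (2.15%), where it called 0.602% of all genes higher, so the absence of calls depends on the test. The 18 included OsTIP2-1, RCc2, OsPEAMT1, OsAGPEP3 and OsUMA3, and the lowest FDR was that of LOC_Os05g40200 at 0.00685 with a log2FC of 0.67 (SE 0.12). The median log2FC of the retained genes was 0.61, and 26 had a log2FC of at least 1.

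In oscoi1ab plants the mock levels were closer to those of WT plants. The median ratio was 1.12, near the 1.09 of the other JA-repressed genes, and the median log2FC was 0.15. In 12 genes the oscoi1ab mock libraries lay wholly above those of WT plants and in 5 below, where 5.76% and 4.31% of all genes did. No retained gene was called by edgeR or by DESeq2, where 0.162% of all genes were called by edgeR, and 4 had an unadjusted edgeR p under 0.05, against 4.43% of all genes.

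**Figure D4:**
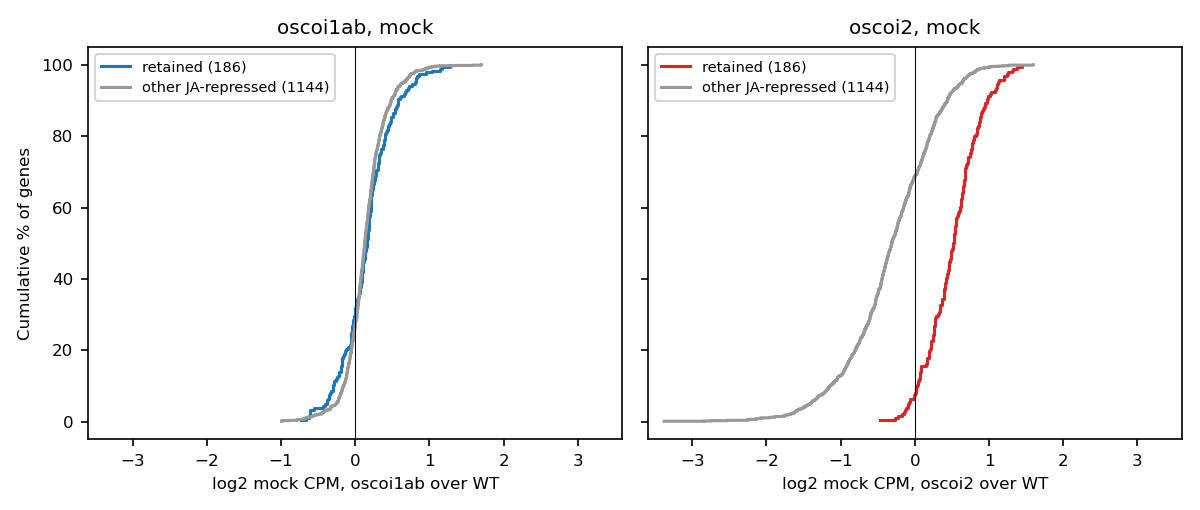
Cumulative share of genes by the log2 ratio of mock CPM, with 0.5 CPM added, in oscoi1ab (left) and oscoi2 plants (right) over WT plants, for the 186 retained genes (coloured) and the 1144 other JA-repressed genes (grey). The curves nearly coincide on the left, and on the right most retained genes lie above 0 and most others below it.

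After JA the levels in oscoi2 plants were also above those in WT plants, though below the WT mock mean in all 186 genes. The median ratio of oscoi2 to WT JA levels was 1.54 for the retained and 2.02 for the other JA-repressed genes. In 77 retained genes (41.4%) all oscoi2 JA libraries lay above those of WT plants, and in 0 below, where 24.9% of all genes tested lay above and 10.6% below. Among all genes of at least 2 CPM 30.4% lay above and 10.4% below. These shares use CPM over library totals, and TMM scaling moves this comparison down by 0.144 in log2. Among the other JA-repressed genes 883 of 1144 (77.2%) lay above, a larger share than among the retained genes. The JA levels enter the rule, so these counts are not independent of the choice of genes. The median log2FC between the lines after JA was 0.70, close to the 0.61 under mock.

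By edgeR, 4 retained genes were called higher in oscoi2 than in WT plants after JA (2.15%), where 1.71% of all genes were. LOC_Os01g62900 had 2.28, 3.41 and 1.54 CPM in WT JA libraries and 7.39, 7.21 and 7.80 CPM in oscoi2 JA libraries, with a log2FC of 1.49 (SE 0.21, FDR 0.000194). Its mock levels were 22 to 24.2 CPM and 39.1 to 48 CPM, so the lines did not overlap in either treatment. The others were LOC_Os02g17860 (log2FC 1.07, SE 0.22, FDR 0.00315), LOC_Os04g48170 (1.03, SE 0.22, FDR 0.00507) and OsAGPEP3 (1.06, SE 0.26, FDR 0.00993). A fit of the compared groups alone called 0 of the retained genes, where it called 0.856% of all genes higher. The number also rested on single libraries: it was 22 without WT JA replicate 2, in which the retained genes were highest among WT JA libraries, 2 without WT JA replicate 1 or without oscoi2 JA replicate 1, and 1 without WT JA replicate 3 or without oscoi2 JA replicate 3. In oscoi1ab plants LOC_Os07g26460 was called lower than in WT plants after JA (log2FC -1.85, FDR 0.0096), where 0.0194% of all genes were called lower.

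The choice was also repeated on a part of the libraries, and the response was read in the others. The limits of the rule were kept as they stood for all 18 libraries, so the reading is not independent of these limits. The rule was applied to the 12 libraries of 2 replicate numbers, and the response was read in the 6 libraries of the third. This chose 179, 173 and 193 genes with replicate 1, 2 and 3 held out, of which 136, 114 and 114 were among the 186. In the libraries held out, L in oscoi2 plants was -1 or below in 142 (79.3%), 165 (95.4%) and 156 (80.8%) of them. Among the other JA-repressed genes chosen on the same 12 libraries it was so in 37.2%, 42.8% and 33.1%, and among all genes of at least 2 CPM in 7.24%, 6.91% and 5.69%.

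The median L in oscoi2 plants, -1.83, -1.82 and -1.80 in the libraries that chose the genes, was -1.60, -1.74 and -1.51 in those held out. That of the other JA-repressed genes held out was -0.76, -0.87 and -0.75. The finer condition held less often: L in oscoi2 plants was at most 0.8 times that in WT plants for 55.9%, 79.2% and 37.3% of the chosen genes, against 16%, 20.7% and 7.19% of the others. Most genes chosen in a turn were thus also repressed in the oscoi2 libraries held out, while the ratio to the WT response varied with the replicate number. The other JA-repressed genes were set apart by a smaller fall in oscoi2 plants. The contrast with them therefore follows in part from the choice. Only 56 genes were chosen in all 3 turns, and 7 of the 24 named genes were.

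The mock levels were also read in the libraries held out, and the difference varied with the replicate number. A high oscoi2 mock level lowers L and so favours the choice of a gene. The other JA-repressed genes were set apart by a smaller fall in oscoi2 plants. The contrast in mock level is therefore a description and not independent of the choice. The chosen genes had a higher mock level in oscoi2 than in WT plants in 78.2%, 65.3% and 91.7% of cases with replicate 1, 2 and 3 held out, against 33.2%, 32% and 36.4% of the other JA-repressed genes and 45.2%, 50.5% and 45.3% of all genes of at least 2 CPM. In oscoi1ab plants the mock level was above that of WT plants for 70.4%, 48.6% and 71% of the chosen genes. Among all genes of at least 2 CPM it was so for 54.1%, 50.7% and 51.3%. The median log2 ratio of oscoi2 to WT mock levels was 0.45, 0.14 and 0.87 for the chosen genes, and that of oscoi1ab to WT 0.205, -0.024 and 0.283. With replicate 2 held out both were smallest. After JA the median log2 ratio of oscoi2 to WT levels was 0.70, 0.04 and 1.39 for the chosen genes, against 0.11, 0.18 and 0.19 for all genes of at least 2 CPM. With replicate 2 held out, 53.8% of the chosen genes and 67.9% of all these genes were higher in oscoi2 than in WT plants after JA, so the chosen genes lay below the background there.

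**Figure D5:**
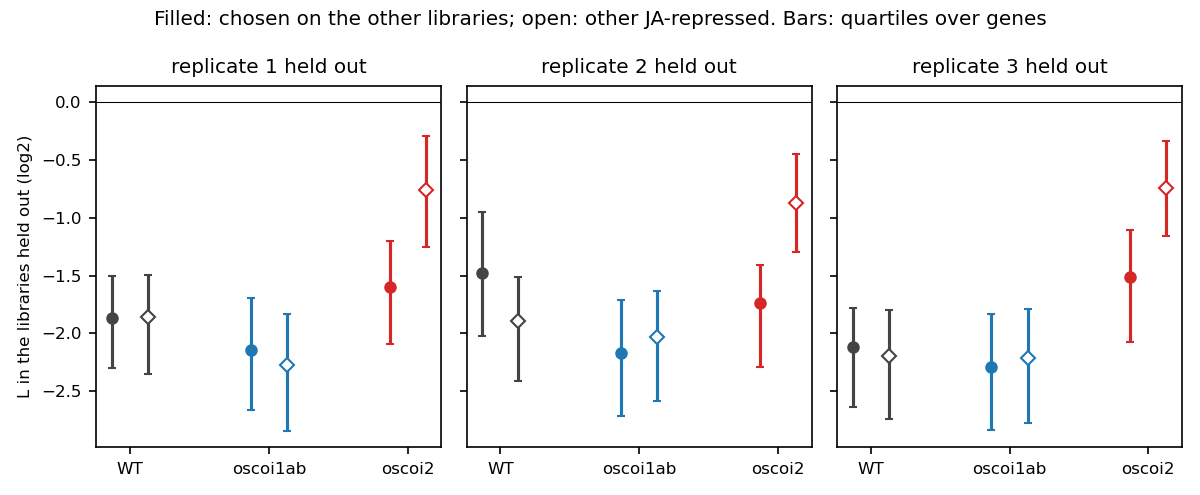
Median JA response L (log2) and quartiles over genes in the 6 libraries of the replicate number held out, for genes chosen on the other 12 libraries (filled) and for the other JA-repressed genes (open). In oscoi2 plants the chosen genes lie at medians of -1.51 to -1.74 and the others at -0.75 to -0.87.

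The retained genes were spread over the 12 chromosomes that their identifiers name, from 28 on chromosome 1 to 5 on chromosome 12. Of the 176 with a RAP-DB identifier, 56 (31.8%) had another JA-repressed gene within 3 places among the genes tested in the order of these identifiers, as had 34.0% of the other JA-repressed genes. Another retained gene lay within 3 places of 24 of them (13.6%), against 4.08% of the other JA-repressed genes. These 24 include the neighbouring identifiers named above, for which shared reads were not tested, and a group of LOC_Os02g17860, LOC_Os02g17880 and LOC_Os02g17900. OsTIP2-1 had a retained neighbour in LOC_Os02g44040, at 2.31 CPM in WT mock libraries. Genes that share reads move together by construction, so the count is a description.

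The retained genes had a median WT mock level of 7.54 CPM, against 12.7 CPM for the other JA-repressed genes, and ranged from 2.01 to 315 CPM, with 40 under 3 CPM. Close to the limit in oscoi2 plants, LOC_Os01g49210 and OsXTH7 were inside with ratios of L in oscoi2 to L in WT plants of 0.802 and 0.8003, and LOC_Os06g11610 and LOC_Os06g37590 outside with 0.7998 and 0.798. For the limit in WT plants the nearest inside were LOC_Os12g01370 and LOC_Os09g20850 with an L of -1.5045 and -1.5067, and outside LOC_Os01g72330 and LOC_Os01g73700 with -1.4964 and -1.4942. For oscoi1ab plants LOC_Os05g15690 and LOC_Os02g44040 were inside with -1.51 each and LOC_Os03g47210 and Os01g0525500 outside with -1.45 each. For the mock level LOC_Os03g06050 and LOC_Os08g43980 were inside at 2.01 and 2.04 CPM, and LOC_Os01g04840 and LOC_Os03g19670 outside at 1.99 and 1.96 CPM. A ratio of at least 1 held for 65 genes, one between 0.9 and 1 for 47 and one between 0.8 and 0.9 for 74, while 228 of the other JA-repressed genes had a ratio of 0.6 to 0.8, so the limit cuts through a continuous range.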

How the data were processed

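The submitters' processing notes and the methods of the study name CutAdapt for trimming, HISAT2 for alignment to both rice references (MSU7, RAP-DB) and StringTie for assembly. Gene counts came from a script of their own. Versions are not given in the sources used here. The authors deposited these counts as whole numbers without normalization, with both annotations merged. A count is not a single read pair, so intervals from counting were not given. From the counts, CPM over library totals and L were computed for the 186 genes. Tests used edgeR 4.0.16 (R 4.3.3) over the 30907 genes whose counts summed to 180 or more: TMM, 1 fit with 6 groups, quasi-likelihood F test, FDR under 0.01 and log2FC of at least 1. SEs are log2FC over the root of F. The scripts were tested on simulated data. DESeq2 1.42.0 was an alternative, and Python 3.11.15 was used for tables and figures.

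Replicate numbers come from the sample titles. After removal of group means, libraries of equal number correlated, over 17643 genes of at least 5 CPM on average, with r of 0.405, 0.446 and 0.345 for mock against JA libraries of WT plants and of 0.256, 0.553 and 0.124 in oscoi2 plants. Between WT and oscoi1ab plants under mock r was 0.525, 0.371 and 0.287. In these comparisons every r exceeded 0.1, and numbers were taken to pair libraries. The main fit nevertheless held no term for the replicate number, so the calls in the Results are unpaired. A fit with the number as a block was run only as an alternative. They were not taken to do so between oscoi2 and WT plants under mock (0.507, 0.009 and -0.111) or after JA (0.155, -0.218 and -0.182), or between mock and JA in oscoi1ab plants (0.059, 0.284 and 0.169).

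The genes, lists and alternatives were chosen with earlier results of these data known. Named in the text are all retained genes in the study's lists, the 10 highest in WT mock CPM, the 10 lowest in L in oscoi2 plants, up to 3 of each annotated family, those called between lines, and the 2 nearest to each limit on either side. The 4 further names from the study's mock list, and other identifiers, were added after their values were seen. No sequences were analysed here.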

Additional observations from a re-analysis of the deposited data

How the results depend on the processing

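The number of retained genes depended on the scale and limits: 106 with TMM scaling, 105 with DESeq2 size factors, 85 with a pseudocount of 2, 117 at a minimum of 5 CPM, 467 and 54 with limits of -1 and -2 in WT and oscoi1ab plants, and 414 and 65 with a ratio of 0.6 and 1.0. With a pseudocount of 0.1 it was 196, of which 149 were among the 186. It was 153 to 265 when 1 library was left out. Called lower after JA were 63 to 131 of the 186 genes in oscoi2 plants, 96 to 141 in WT plants and 137 to 170 in oscoi1ab plants when 1 library was left out. The median log2FC in oscoi2 plants was -1.99 with scaling by library size only and -2.06 to -1.73 without 1 library.

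Between oscoi2 and WT plants under mock, where no gene was called, 6 were called by DESeq2 (0.607% of all genes with an adjusted p were called higher), 4 by the likelihood ratio test (0.602%; OsPEAMT1, OsTIP2-1, RCc2 and OsAGPEP3), 5 at an FDR of 0.05 (0.608%; these and LOC_Os05g49760) and 0 to 2 without 1 library, namely LOC_Os02g17860 without WT mock replicate 2, and LOC_Os04g48170 and OsAGPEP3 without oscoi2 mock replicate 2. With the replicate number as a block 1 was called, OsAGPEP3 (0.281% of all genes). After JA the 4 called between these lines became 11 with DESeq2, 9 with the likelihood ratio test, 13 with library size only, 19 at an FDR of 0.05 and 0 in a fit of the compared groups only, where 2.71%, 2.86%, 2.69%, 3.04% and 0.856% of all genes were called higher, and 1 to 22 without 1 library. Under the replicate block 6 were called after JA (2.03% of all genes), and 125, 142 and 167 genes were called lower after JA in oscoi2, WT and oscoi1ab plants.

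No gene was called for a difference of response between oscoi2 and WT plants, or between oscoi1ab and WT plants under mock, in any alternative run. The genes with non-overlapping oscoi2 and WT mock libraries were 79 as reported, 87 with TMM scaling, 86 with DESeq2 size factors, and 83 to 108 without 1 library. The mean share with an L of at most -1 in oscoi2 libraries held out was 85.2%, and 84.2% to 86.8% under the scalings and pseudocounts tried; these alternatives were chosen after seeing the data. With 3 libraries a group and counts that are not single read pairs, small differences between lines may go uncalled. Whether this applied more to the 40 retained genes under 3 CPM in WT mock libraries was not tested. The causes of these changes with the setting were not tested.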
